A study of Mus musculus with 24 samples.

Results

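The *Sae1*, *Bbc3* and *C5ar1* locus is a stretch of chromosome 7 (GRCm38) from 16.2 to 16.45 Mb that carries 7 member genes, in order *C5ar2*, *C5ar1*, *Inafm1*, *Ccdc9*, *Bbc3*, *Sae1* and *Zc3h4*. Its members are the differentially 5-hydroxymethylated regions (DhMRs) that start inside this stretch. They were 123 of the 20726 DhMRs in both deposited lists, and each was a window of 198 bp inside a 200 bp bin. All 123 were among the 12096 DhMRs with 5hmC higher in Wt25, and 0 were among the 8630 with 5hmC higher in AA10. The locus was chosen by these same calls, as a dense group of windows of one direction in mostly unique sequence. Their number, direction and uniqueness here are therefore a description and not a test.

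The cells were mouse ESCs on a C57BL/6J-129V mixed background in which *Tet1*, *Tet2* and *Tet3* had all been knocked out, kept in 2i medium with LIF. Wt25 expressed human wild-type Tet3 from a lentivirus. AA10 expressed the phosphor-mutant, in which both serines of the catalytic domain reported as phosphorylated by the kinase cdk5 were replaced by alanine. Each line was 1 puromycin-selected clone, so what belongs to the Tet3 form and what belongs to the clone cannot be told apart. There were 3 5hmC-DIP libraries of each line, and the deposited lists combine them, and give neither a count of reads nor the size or *P*-value of the difference. The spread between libraries, the depth behind a window and how far a window lies from the threshold cannot be read from these lists. Genomic DNA input was not analysed here, so higher in Wt25 means more 5hmC-DIP reads as the authors called them, and how much DNA of this locus each clone carried was not tested. Intervals given with shares are 95% Wilson intervals that cover counting error only and treat neighbouring bins as independent, which they are not.

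5hmC is made from 5-methylcytosine, mostly at CpG sites, by the Tet dioxygenases, and it is found in the bodies of expressed genes and at enhancers of mouse ESCs. 5hmC-DIP recovers DNA fragments that carry it with an antibody. *Sae1* encodes a subunit of the enzyme that activates SUMO, a small protein that is then attached to other proteins. *Bbc3* encodes PUMA, a BH3-only protein that p53 induces in apoptosis, *C5ar1* and *C5ar2* encode receptors of the complement fragment C5a, and *Zc3h4* encodes a zinc finger protein that restricts non-coding transcription. *Ccdc9* encodes a coiled-coil protein and *Inafm1* a small protein with an InaF motif.

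The sequences of 9 DhMRs are shown first, because CpG sites are where 5hmC can form and these windows span the range from 0 to 11 CpGs; the 2 windows of the locus with more lie at the *Bbc3* start site. They are read 5′ to 3′ on the plus strand of GRCm38.p6 (RefSeq), with CpGs in capitals, whereas *Sae1*, *Ccdc9* and *C5ar2* lie on the minus strand. They are the first window of the dense group, a block of 4 touching windows in the last intron of *Sae1*, the pair of touching windows at *Sae1* exon 7 (one intronic with most CpGs in the gene, one coding), the coding window of *Ccdc9*, and the single window of the locus that holds no CpG, which was picked after its value was seen.
C5ar2 promoter, chr7:16242803-16243000: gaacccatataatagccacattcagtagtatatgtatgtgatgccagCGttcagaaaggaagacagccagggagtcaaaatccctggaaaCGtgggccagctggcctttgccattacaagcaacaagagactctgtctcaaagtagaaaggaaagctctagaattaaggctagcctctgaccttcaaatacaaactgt
Sae1 intron 9, block window 1, chr7:16324003-16324200: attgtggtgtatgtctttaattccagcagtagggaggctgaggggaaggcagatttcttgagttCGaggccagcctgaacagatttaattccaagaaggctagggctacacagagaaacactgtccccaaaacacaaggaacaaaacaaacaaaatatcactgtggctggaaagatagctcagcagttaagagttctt
Sae1 intron 9, block window 2, chr7:16324203-16324400: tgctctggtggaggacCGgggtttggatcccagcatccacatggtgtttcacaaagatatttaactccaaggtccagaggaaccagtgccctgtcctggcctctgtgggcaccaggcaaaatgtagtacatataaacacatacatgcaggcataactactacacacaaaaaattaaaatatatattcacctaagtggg
Sae1 intron 9, block window 3, chr7:16324403-16324600: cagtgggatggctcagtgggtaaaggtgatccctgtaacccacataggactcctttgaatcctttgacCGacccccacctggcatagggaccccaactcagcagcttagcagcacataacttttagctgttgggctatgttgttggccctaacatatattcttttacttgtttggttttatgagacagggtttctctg
Sae1 intron 9, block window 4, chr7:16324603-16324800: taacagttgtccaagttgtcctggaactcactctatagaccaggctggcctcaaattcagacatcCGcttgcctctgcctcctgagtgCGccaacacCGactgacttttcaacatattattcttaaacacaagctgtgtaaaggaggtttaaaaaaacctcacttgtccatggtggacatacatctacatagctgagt
Sae1 intron 7, chr7:16336403-16336600: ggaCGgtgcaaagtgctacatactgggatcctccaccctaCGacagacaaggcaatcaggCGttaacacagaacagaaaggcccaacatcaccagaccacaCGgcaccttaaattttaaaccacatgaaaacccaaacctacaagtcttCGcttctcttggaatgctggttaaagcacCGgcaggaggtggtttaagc
Sae1 exon 7, chr7:16336603-16336800: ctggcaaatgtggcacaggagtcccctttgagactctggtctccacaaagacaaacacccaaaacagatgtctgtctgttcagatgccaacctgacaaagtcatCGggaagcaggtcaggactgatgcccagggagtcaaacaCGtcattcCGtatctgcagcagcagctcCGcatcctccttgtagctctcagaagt
Ccdc9 exon 5, chr7:16282403-16282600: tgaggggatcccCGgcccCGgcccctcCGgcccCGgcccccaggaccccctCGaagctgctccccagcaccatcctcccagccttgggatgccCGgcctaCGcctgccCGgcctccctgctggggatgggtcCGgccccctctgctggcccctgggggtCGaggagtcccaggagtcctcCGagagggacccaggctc
Sae1 intron 6, no CpG, chr7:16341803-16342000: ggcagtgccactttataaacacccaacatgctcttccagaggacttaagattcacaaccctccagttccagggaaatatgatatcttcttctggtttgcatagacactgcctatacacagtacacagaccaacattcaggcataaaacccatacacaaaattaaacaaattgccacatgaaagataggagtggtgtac
The block in intron 9 holds 6 CpGs in all, with 1, 1, 1 and 3 in its windows, while the *Ccdc9* window alone holds 11.

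Most of the DhMRs formed one dense run. When windows of the Wt25 list were grouped wherever neighbouring starts lay at most 10 kb apart, 120 of the 123 fell in a single run. It reached from 16242803 to 16401800, 159 kb, from the promoter at an inner start site of *C5ar2* (16242331) to the first kb of *Zc3h4*. Of its 795 bins of 200 bp, 120 were listed, 15.1%, beside 0.0914% of all bins of the genome without unknown bases for the Wt25 list and 0.0652% for the AA10 list. The number of bins that the authors tested is not known, so these percentages are of all bins. The run amounted to 0.112% of the bins of chromosome 7 and 12.4% of its 967 Wt25 DhMRs. Chromosome 7 as a whole carried 318 AA10 DhMRs, and 75.3% of its DhMRs were higher in Wt25, 72.7% without the run, compared with 58.4% over both lists.

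**Figure D1:**
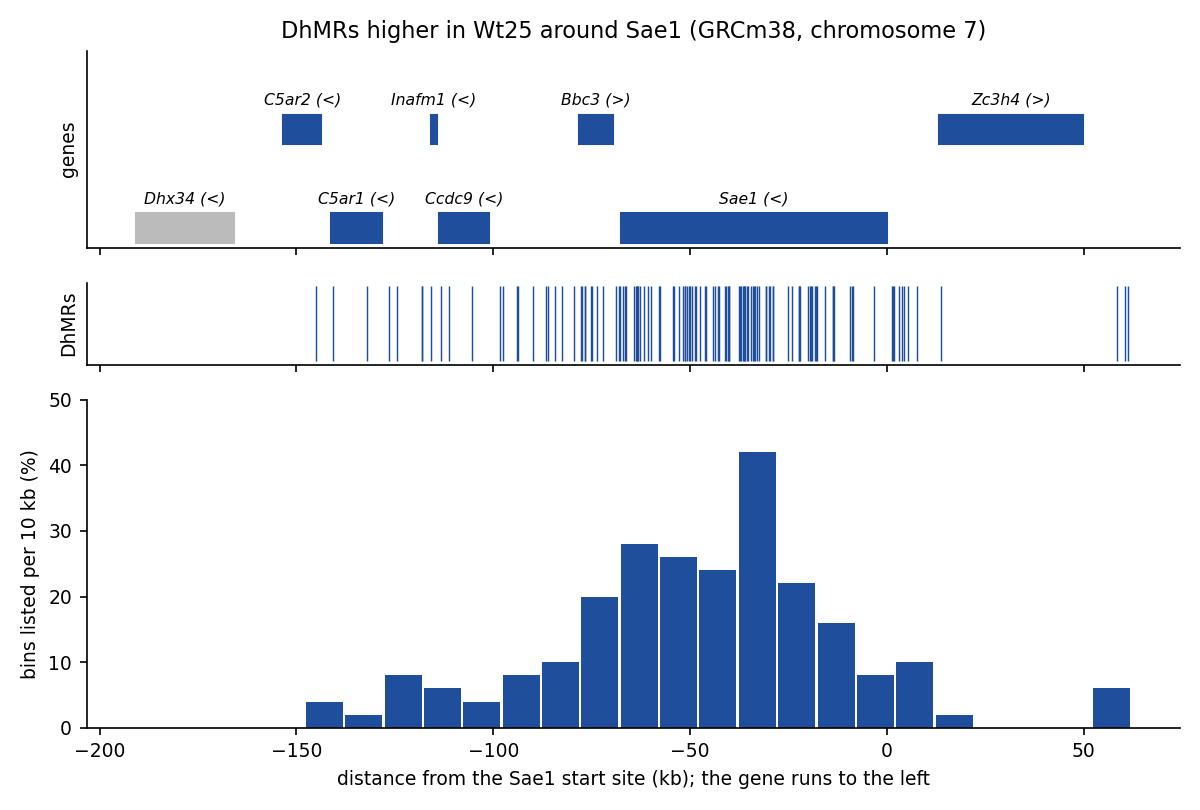
Member genes (blue) and *Dhx34* (grey) with their strand as an arrow, the DhMRs higher in Wt25 as vertical lines, and the percentage of 200 bp bins listed in each 10 kb segment, against the distance in kb from the *Sae1* start site. The listed share is highest, 42%, in the segment centred at -32.9 kb, inside *Sae1*, and is 0% in the 4 segments on the left edge.

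Along the run the listed share changed with position, as the map of DhMRs along the locus shows. In the run's 10 kb segments that hold *C5ar2*, *C5ar1*, *Inafm1* and *Ccdc9*, between 2% and 6% of the bins were listed, and 8% in each of the segments without a gene, centred at -122.9 and -92.9 kb from the *Sae1* start site. The share was 20% in the segment centred at -72.9 kb from the *Sae1* start site, which holds most of *Bbc3*, and between 22% and 42% in the next 5 segments, inside *Sae1*. It was 16% and 8% in the last 2 segments that reach into *Sae1*, 10% in the segment beyond the start site and 2% at the *Zc3h4* start. The highest segment had 21 of 50 bins listed and a mean of 1.58 CpGs per bin, and it was also the segment with the least unique sequence of the interval, 84.8% of its stretches of 50 bases (the read length) occurring once in the genome, compared with 93.8% over the run.

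*Sae1* held most of the windows. With a window assigned to a gene by its midpoint, 79 of the 123 DhMRs lay inside *Sae1* (16320236 to 16387896, minus strand), 11.7 per 10 kb of gene. *Bbc3* (16309583 to 16318334, plus strand) held 8, 9.14 per 10 kb. *Ccdc9* (16274042 to 16286795, minus strand) held 3 and *C5ar1* (16246743 to 16259540, minus strand) held 2, which is 2.35 and 1.56 per 10 kb. *C5ar2* (16234587 to 16244154, minus strand), *Inafm1* (16272013 to 16273692, minus strand) and *Zc3h4* (16401196 to 16437696, plus strand) held 1 each, although *Zc3h4* is 36.5 kb long. The other 28 DhMRs lay between genes: 10 between *Ccdc9* and *Bbc3*, 8 between *Sae1* and *Zc3h4*, 4 between *C5ar1* and *Inafm1*, 3 in the 1901 bp between *Bbc3* and *Sae1*, and 3 beyond *Zc3h4*. *Dhx34*, which encodes an RNA helicase and enters the interval from the left, held 0, as did the GENCODE genes *Gm45409*, *Gm26473*, *Gm45508*, *Gm45509* and *Gm45510*. Over the genome, 2963 of 26182 RefSeq genes held a Wt25 DhMR, with a median of 1 each, and 1 of them, *Ptprg*, held more than *Sae1*. That gene, which encodes a receptor-type tyrosine phosphatase, held 106 in 688 kb, compared with 79 in 67.7 kb for *Sae1*.

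The gene named in the deposited list gave a different split, because the list names the gene with the nearest start site. It matched the gene of the nearest curated RefSeq start site for 123 of the 123 windows. By that assignment *Bbc3* had 54 DhMRs and *Sae1* 48, and 38 of the 54 under *Bbc3* lay inside *Sae1*. The genes run toward each other with their ends 1901 bp apart, so the far part of *Sae1* lies nearer to the *Bbc3* start site than to its own. The list placed 5 windows under *Inafm1*, 6 under *Ccdc9*, 3 under *C5ar1*, 2 each under *C5ar2* and *Zc3h4*, and 3 under *Tmem160*, the nearest curated RefSeq gene beyond *Zc3h4*.

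**Figure D2:**
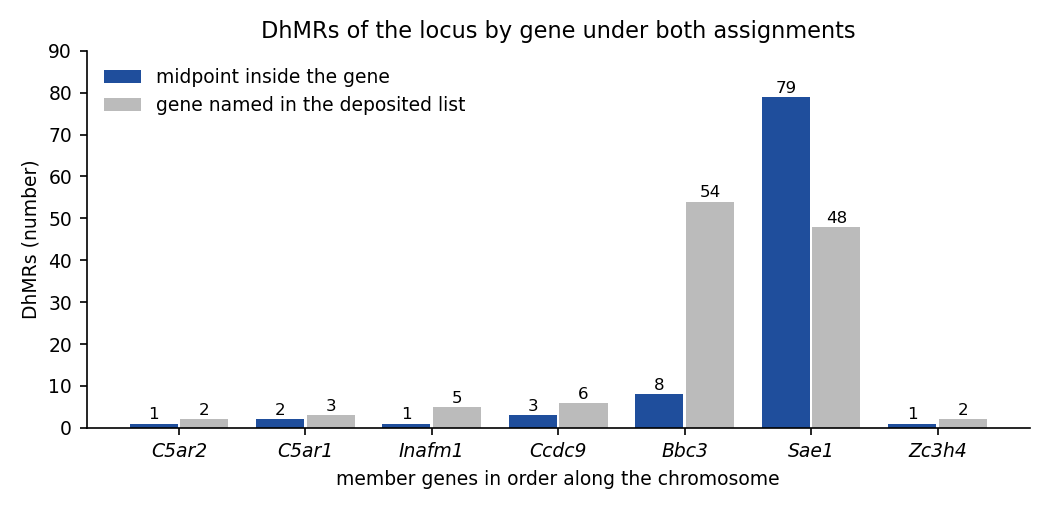
Number of DhMRs of the locus for each member gene, with a window assigned by its midpoint (blue) or by the gene named in the deposited list (grey). *Bbc3* has 8 by midpoint and 54 in the list, and *Sae1* has 79 and 48.

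Within *Sae1* the DhMRs were mostly intronic and unevenly spread. In the curated RefSeq transcript with 10 exons that spans the gene, 77 midpoints fell in introns and 2 in exons. Intron 6, 22.2 kb long, held 38 midpoints, 17.1 per 10 kb, and intron 9, 6.95 kb long, held 11, 15.8 per 10 kb. Intron 3 was the densest, with 5 in 1.64 kb or 30.6 per 10 kb. The first 2 introns were sparsest, with 4 in 9.16 kb and 4 in 7.9 kb, or 4.36 and 5.06 per 10 kb. Introns 4, 5, 7 and 8 held 2, 5, 5 and 3. The coding exons with a midpoint were exon 7 (window 16336603 to 16336800, 107 bp of overlap, 4 CpGs) and exon 6 (window 16359003 to 16359200, 106 bp of overlap, 3 CpGs).

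Over all 123 windows, 84 (68.3%) had their midpoint in an intron, 25 (20.3%) in intergenic sequence, 6 (4.88%) at a termination site, 4 (3.25%) in a promoter, 3 (2.44%) in a coding exon and 1 (0.813%) in a 3′ UTR, that of *C5ar1*. A promoter here reaches from 1 kb before to 100 bp after a start site, and a termination site from 100 bp before to 1 kb after a transcript end. Of the bins of the run, 55.6% were intronic, 27.2% intergenic and 6.92% in promoters. In the run, 19% of intronic bins, 10.2% of intergenic bins and 7.27% of promoter bins were listed. The promoter bins had the higher mean CpG number, 7.93 per bin compared with 2.09 in introns. Of the 84 intronic windows, 75 lay in *Sae1*, which held 2 more at termination sites. Of all bins, whatever their feature, 23.4% were listed in *Sae1* and 8.97% in the rest of the run. Whether introns differ from other features apart from this was not tested. The promoter windows were 1 at *C5ar2*, 1 at *Inafm1* (16274403 to 16274600, which lies within *Ccdc9*) and 2 at *Bbc3*. With the GENCODE transcripts the 2 at *Bbc3* were intronic instead. The *C5ar2* window lies inside the gene, before its inner start site at 16242331. Within 1 kb of the outer one, at 16244154, 0 of 11 bins were listed.

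CpG-rich start sites differed in how many bins were listed. The 2 windows at *Bbc3* (16310203 to 16310400 and 16310403 to 16310600) held 28 and 18 CpGs, the highest numbers of the locus. They touch each other on start sites of shorter RefSeq transcripts of *Bbc3*, and were intronic with the GENCODE transcripts. Within 1 kb of each of the 3 *Bbc3* start sites (16309583, 16310261 and 16310431), 3, 4 and 4 of 11 bins were listed, with 141, 151 and 148 CpGs. These 3 sets of bins overlap, so the counts share windows. Within 1 kb of the *Inafm1* start site, 1 of 11 bins was listed, with 141 CpGs in the 11. The listed window there held 5 CpGs. Of the 11 bins within 1 kb of the *Sae1* start site, which hold 70 CpGs, 0 were listed, and the nearest DhMRs were 3195 bp into the gene and 1205 bp before it. Within 1 kb of the outermost *Ccdc9* start site, 0 of 11 bins with 88 CpGs were listed. At the *Zc3h4* start site 1 of 11 bins was listed, with 161 CpGs in the 11. This window (16401603 to 16401800, 6 CpGs) is the last of the run. Over the run, 49 bins held 10 or more CpGs and 3 of them were listed, the pair at *Bbc3* and the *Ccdc9* exon 5 window (16282403 to 16282600, 11 CpGs).

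In the run, bins with 4 or more CpGs were listed at a lower share than bins with 1 to 3. The authors' DNA fragments were at least as long as a bin, so reads in a bin can come from 5hmC in neighbouring bins. Of the 131 bins with no CpG, 1 was listed (0.763%, interval 0.135% to 4.2%). The share was 47 of 207 with 1 CpG (22.7%, interval 17.5% to 28.9%), 52 of 263 with 2 or 3 (19.8%, interval 15.4% to 25%) and 20 of 194 with 4 or more (10.3%, interval 6.77% to 15.4%). A lower share at 4 or more CpGs than at 1 to 3 was also found in 16 of the 26 other dense runs of the Wt25 list. Over the genome, the listed share for the Wt25 list went from 0.0718% of bins with 1 CpG to 0.343% of bins with 7 to 9, and was 0.233% of bins with 10 or more. In the run it was 16.7% of bins with 5 to 6 CpGs and 5% of bins with 7 to 9, the latter being 1 of 20 bins, with an interval of 0.888% to 23.6% that overlaps the interval at 1 CpG. In *Sae1*, 39 of 107 bins with 1 CpG were listed (36.4%, interval 27.9% to 45.9%) and 5 of 49 with 4 or more (10.2%, interval 4.44% to 21.8%). In the rest of the run the shares were 8% of 100 bins with 1 CpG, 12.2% of 148 with 2 or 3 and 10.3% of 145 with 4 or more, with overlapping intervals. Whether *Sae1* and the rest of the run differ in this was not tested.

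**Figure D3:**
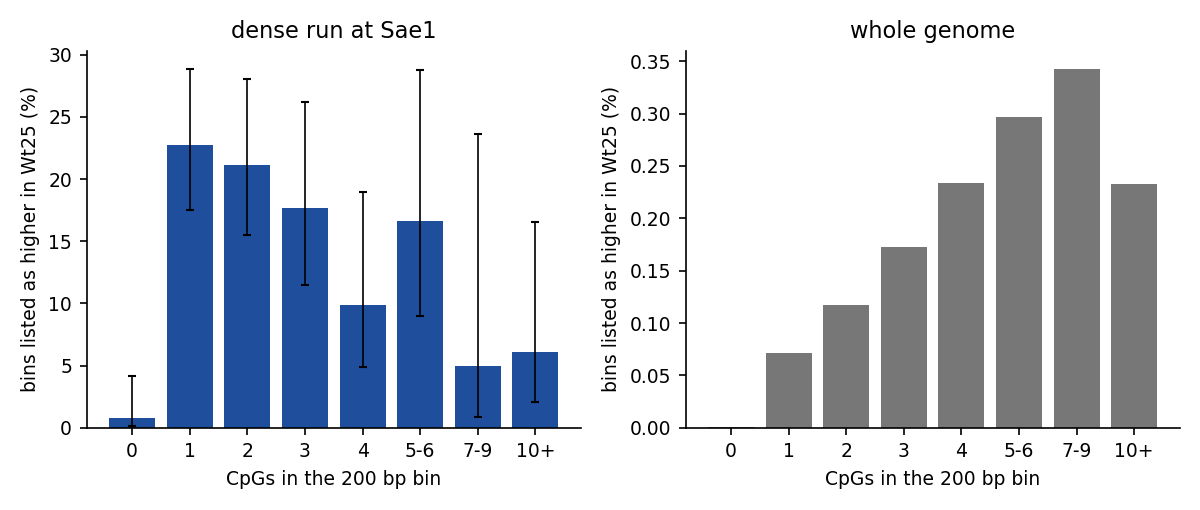
Percentage of 200 bp bins listed as higher in Wt25 by the number of CpGs in the bin, in the dense run (left, bars with 95% Wilson intervals) and in the whole genome (right), on separate linear axes. In the run the share is 22.7% at 1 CpG and 6.12% at 10 or more, and in the genome it is 0.0718% at 1 CpG, 0.343% at 7 to 9 and 0.233% at 10 or more.

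The DhMRs themselves had 2.57 ± 3.16 CpGs (SD, n = 123 windows), median 2, with a range of 0 to 28. The other 11973 Wt25 DhMRs had 3.25 ± 2.51, median 3, and the 8630 AA10 DhMRs 3.16 ± 2.36, median 3. Bins of the run that were not listed had 3.07 ± 4.34 (n = 675), with the same median, 2, as the listed bins. By gene, the mean was 8.88 in the 8 windows of *Bbc3*, 5.67 in the 3 of *Ccdc9* and 1.78 in the 79 of *Sae1*, whose highest was 6. The windows held 1.3 CpGs per 100 bp, above the 0.826 of the genome.

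The sequence was mostly unique, which was part of how the locus was chosen, and the calls rest on uniquely aligned reads. Of the 123 windows, 97 (78.9%) lay in bins in which every stretch of 50 bases occurs once in the genome, almost the share of the other Wt25 DhMRs (78.8%). In 7 windows under 50% of the stretches were unique. Of these 7, 3 lie in *Sae1* intron 6 between 16353203 and 16354200. Repeat-marked bases made up 35.8% of the windows and 37.7% of the run. Within the run, 15.1% of 631 wholly unique bins were listed (interval 12.5% to 18.1%). Of 31 mainly non-unique bins, 19.4% were listed (interval 9.19% to 36.3%), and the intervals overlap.

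The DhMRs of the run were closely spaced. The median distance from one start to the next was 600 bp over 119 distances, with a range of 200 to 8600 bp, and 77 of them (64.7%) were at most 1 kb. The median was 21 kb over the whole Wt25 list and 15 kb on chromosome 7 without the run. Of the 120 windows, 61 (50.8%) touched another, compared with 24.2% of all Wt25 windows. Joining them gave 85 regions, of which 59 were single windows, 19 held 2, 5 held 3 and 2 held 4. The 2 largest, of 800 bp each, were the block in intron 9 shown above and one in intron 6 (16351203 to 16352000, 7 CpGs).

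Stretches without a DhMR bordered the run on both sides, each longer than 10 kb by the definition of the run. The last Wt25 DhMR before it was at 16105803 to 16106000, 136.8 kb away, and the 684 bins between hold 2.78 CpGs per bin and 97.2% unique sequence, compared with 3 and 93.8% in the run. *Dhx34* is the nearest curated RefSeq gene beyond this border. On the right, the next DhMRs were at 16446403, 16448203 and 16449003, after 44.6 kb without a DhMR over the rest of *Zc3h4*, in which 50 of 223 bins hold 4 or more CpGs. These 3 complete the 123. There were 3 Wt25 windows in the 250 kb before the run and 11 in the 250 kb after it. These are 1.2 and 4.4 per 100 kb, beside 75.5 in the run, 0.682 on chromosome 7 and 0.457 over the genome. The nearest AA10 DhMRs were 2710 kb before and 2358 kb after the run, and 213 Wt25 DhMRs lay between them.

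Among dense runs of at least 20 windows, of which the Wt25 list had 27 with gaps of at most 10 kb, the run at *Sae1* had the most windows and the greatest length. This order depended on the gap: of 20 runs at 5 kb, 1 had more windows (108, compared with 99) and 0 were longer, and of 44 runs at 20 kb, 1 had more windows (124, compared with 120) and 6 were longer. The next in windows was 115 on chromosome 2, which was also the next in length at 124.6 kb, and the medians of the other 26 were 37 windows and 55.8 kb. The 15.1% of bins listed lay within the range of the others, 5.98% to 43.5%. In 79.2% of its windows the bin was wholly unique, compared with a median of 88.7% in the others. In the run at *Sae1* the mean CpG number of listed bins minus that of bins not listed was -0.474. In the others this difference ranged from -0.716 to 1.93, with a median of 0.535, and it was below 0 in 4 of the 26. The value of the run at *Sae1* pools 2 unlike parts. In *Sae1* itself, 23.4% of bins were listed, with means of 1.78 CpGs in listed bins and 1.89 in the others. In the rest of the run, 8.97% were listed, and the means went the other way, 4.17 and 3.81.

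**Figure D4:**
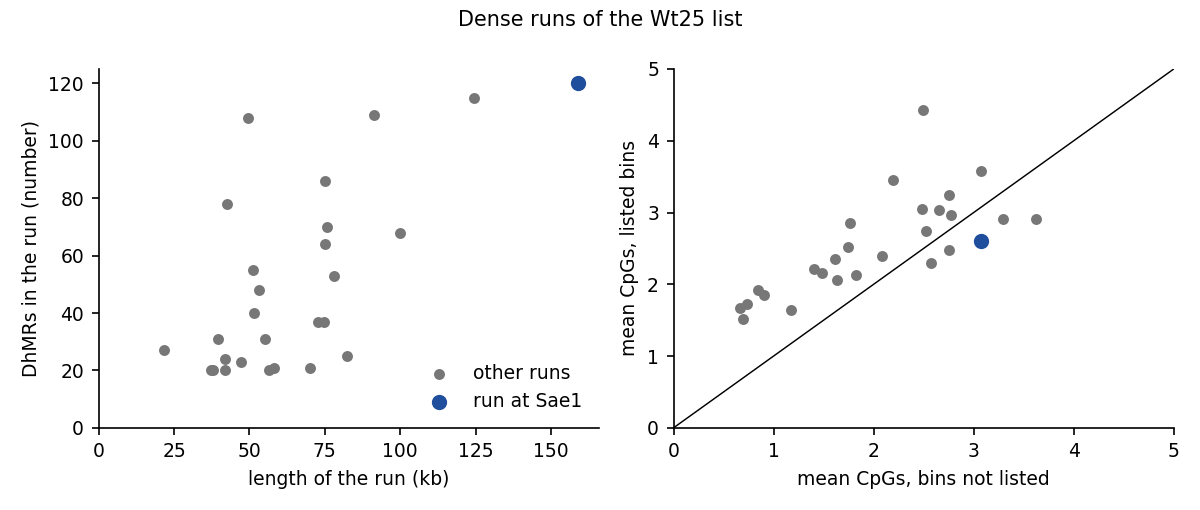
The 27 dense runs of the Wt25 list with gaps of at most 10 kb. Left, number of DhMRs against length in kb; right, mean CpGs of listed bins against mean CpGs of bins not listed, with the line of equality. The run at *Sae1* (blue) is farthest to the right on the left panel, with 120 DhMRs in 159 kb, and lies below the line on the right panel, at 3.07 and 2.6.

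Other genes of the same pathways held up to 3 DhMRs of one list each. Of 10 further complement genes, 0 held a DhMR of either list. Of 15 further genes in a list of the BH3-only and BCL2 family and p53, 4 held a Wt25 DhMR (*Hrk* and *Bcl2l1* with 2, *Bmf* and *Trp53* with 1) and 2 an AA10 DhMR (*Bid* and *Bik*, 1 each). *Hrk*, *Bmf*, *Bid* and *Bik* encode BH3-only proteins like PUMA, *Bcl2l1* encodes an inhibitor of apoptosis and *Trp53* encodes p53. Of 14 further genes of the SUMO pathway, 3 held a Wt25 DhMR (*Pias2* 3, *Senp1* 2, *Senp3* 1) and 2 an AA10 DhMR, *Pias1* with 2 and *Uba2*, the partner subunit of Sae1, with 1. *Pias1* and *Pias2* encode SUMO ligases and *Senp1* and *Senp3* SUMO proteases. Of 8 genes related to *Zc3h4*, *Zc3h18* held 2 Wt25 DhMRs and *Zc3h13* and *Srrt* 1 each. In all, 10 of these 47 genes (21.3%) held a Wt25 DhMR and 4 (8.51%) an AA10 DhMR, beside 11.3% and 8.46% of all RefSeq genes. Gene length was not accounted for in these shares.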

How the data were processed

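5hmC-DIP libraries, 3 per line, were sequenced as paired reads of 50 bp. The authors kept reads with a unique STAR alignment to GRCm38 and discarded PCR duplicates (Picard). MEDIPS then called 200 bp bins that differed between the lines (*P* under 0.05, fold change of at least 1). Bins were dropped where they overlapped IgG-DIP peaks, tandem repeats or sequence of low complexity, and HOMER assigned genes. The deposited lists hold positions and a gene for each window, and no measured value. Tool versions are not given in the sources used here.

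CpGs, repeat marks and stretches of 50 bases that occur once were counted in GRCm38.p6 over 21 chromosomes. Features came from curated RefSeq transcripts, in the order promoter, termination site, exon, intron and intergenic. Where a share carries an interval, it is a 95% Wilson interval. No test was made, since windows of 1 locus are not replicates and the calls chose them. The locus, the gene lists and the definition of a dense run were chosen with earlier results of these data known. Named genes were the members, other genes in the interval, the nearest curated RefSeq gene beyond each border and listed pathway genes with a DhMR; *Ptprg* was added after its value was seen. Calculations were tested on simulated data, and 25 of 25 checks passed. The versions were numba 0.67.0, scipy 1.17.1, pandas 2.3.3, numpy 2.4.6, matplotlib 3.10.9 and Python 3.11.15. RNA-seq, H3K27ac and input libraries were not analysed here, and 1 gene of the lists is not reported here.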

Additional observations from a re-analysis of the deposited data

How the results depend on the processing

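The gene assignment changed the counts most. *Sae1* had 79 DhMRs by midpoint and 48 by both the gene of the deposited list and the nearest start site, while *Bbc3* had 8 by midpoint and 54 by both. Any overlap and the GENCODE spans left 79 and 8. The GENCODE spans and the alternatives for *Bbc3* and for the number of windows in the run were chosen after the data had been seen. With gaps of at most 5 kb the run shortened from 159 to 90 kb, from 16289403 to 16379400, and kept 99 windows, 78 of them inside *Sae1*, and with gaps of at most 20 kb it was 159 kb. With all runs regrouped at 20 kb, also chosen after the data had been seen, the longest elsewhere was 211.6 kb. Joining touching windows raised the median distance from 600 to 1200 bp. With the GENCODE transcripts the windows counted as promoters at *Bbc3* became intronic. The intronic share, the mean CpG number, the share of bins with 4 or more CpGs that were listed and the number of windows beside the run moved by less than the interval of the share, the spread among windows or 1.5 times under the alternatives tried. By side, however, the windows before the run went from 1.2 per 100 kb in 250 kb to 0.3 in 1000 kb, and those after it from 4.4 to 3.8. No paired analysis was possible because the result comes from no test, and no replicate could be left out because the lists hold no value per library.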
